A study of Mus musculus with 5 samples.

Results

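The collagen genes of developing hindlimb muscle were followed by cell type, by stage and with muscle motion absent. The members were all genes of the deposited gene list whose symbol was Col, a number, the letter a and a number, except Col13a1, Col22a1, Col23a1, Col24a1 and Col25a1, which gave 39 of 32285 genes. Each nucleus had been measured for RNA and for open chromatin (10x Multiome) in 5 libraries of C57bl6n mouse hindlimb skeletal muscle, freed of skin and bone, with 1 library per group. The groups were Cacna1s-/- (KO) embryos at E18.5 (26 hindlimbs pooled), WT embryos at E14.5 (56 hindlimbs) and E18.5 (14 hindlimbs), WT pups at P5 (8 hindlimbs) and WT adults (4 hindlimbs). Cacna1s encodes the alpha subunit of Ca(v)1.1, the voltage sensor that couples excitation to contraction in skeletal muscle. KO fetuses are therefore paralysed in skeletal muscle throughout the body and not only in the hindlimb. Nuclei had been stained for PCM1, a marker of myonuclei, and equal volumes of the positive and the negative nuclei were combined, so the share of each cell type in a library was set in part by the sort. Because each library pools several animals and stands alone in its group, no value below measures the spread between animals, no p-value was computed, and every interval is a 95% interval for counting error only.

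Collagens are built of chains that wind into a triple helix, and families of chains assemble into different structures. The fibrillar chains form the rope-like fibrils of tendon and of the connective tissue around muscle fibres, while FACIT collagens decorate fibril surfaces and type VI chains form beaded filaments beside them. Type IV chains form the network of the basement membrane, the sheet that wraps every muscle fibre and vessel, in which the multiplexins Col15a1 and Col18a1 are also found. By family, the 39 genes comprised 10 fibrillar, 8 FACIT, 6 basement membrane network, 6 beaded filament, 3 short chain network, 2 multiplexin and 4 anchoring, transmembrane or other genes, on 15 chromosomes.

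The sequences below show the promoters of 5 members on which the results turn: Col1a2, Col3a1 and Col5a3, fibrillar genes; Col19a1, a FACIT gene; and Col4a1, a basement membrane gene. They are RefSeq sequences of GRCm38.p6, reaching from 250 bases before to 50 bases after the annotated start, written 5′ to 3′ on the gene's strand, and each whole window lay inside an open chromatin peak of the WT E18.5 library. The Col1a2 window (chr6:4505368-4505667, plus strand) has the letters CCAAT or their reverse complement ATTGG in capitals, and the Col5a3 window (chr9:20815018-20815317, minus strand) has CCAAT in capitals. The Col3a1 window (chr1:45311288-45311587, plus strand) has TATAAA in capitals, and the Col19a1 window (chr1:24587388-24587687, minus strand) has a match to CANNTG, the letters of an E-box, in capitals. In the Col4a1 window (chr8:11312777-11313076, minus strand) the capitals mark the 22 bases that lie in both annotated genes, since Col4a1 and Col4a2 start head to head on opposite strands.
Col1a2: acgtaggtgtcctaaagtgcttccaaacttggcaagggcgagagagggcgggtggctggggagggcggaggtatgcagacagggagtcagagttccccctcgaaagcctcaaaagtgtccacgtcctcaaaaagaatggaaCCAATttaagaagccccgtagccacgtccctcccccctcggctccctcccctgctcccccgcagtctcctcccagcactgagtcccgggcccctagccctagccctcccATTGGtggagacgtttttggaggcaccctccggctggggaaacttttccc
Col5a3: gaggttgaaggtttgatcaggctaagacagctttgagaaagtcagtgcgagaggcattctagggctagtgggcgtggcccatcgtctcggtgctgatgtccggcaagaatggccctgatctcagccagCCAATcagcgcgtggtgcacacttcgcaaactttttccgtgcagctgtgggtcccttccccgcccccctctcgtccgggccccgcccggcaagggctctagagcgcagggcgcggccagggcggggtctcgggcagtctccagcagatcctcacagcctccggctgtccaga
Col3a1: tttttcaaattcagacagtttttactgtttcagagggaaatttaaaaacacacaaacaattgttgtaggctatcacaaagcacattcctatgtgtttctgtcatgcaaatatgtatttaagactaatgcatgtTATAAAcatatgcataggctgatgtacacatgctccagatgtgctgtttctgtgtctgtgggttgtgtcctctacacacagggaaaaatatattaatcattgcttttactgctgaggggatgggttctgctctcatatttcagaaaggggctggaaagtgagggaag
Col19a1: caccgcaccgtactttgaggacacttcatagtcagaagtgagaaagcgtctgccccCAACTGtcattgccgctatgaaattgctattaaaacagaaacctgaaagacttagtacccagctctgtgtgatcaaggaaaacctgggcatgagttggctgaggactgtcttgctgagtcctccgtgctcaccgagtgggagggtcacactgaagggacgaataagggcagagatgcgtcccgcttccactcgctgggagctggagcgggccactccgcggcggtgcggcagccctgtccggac
Col4a1: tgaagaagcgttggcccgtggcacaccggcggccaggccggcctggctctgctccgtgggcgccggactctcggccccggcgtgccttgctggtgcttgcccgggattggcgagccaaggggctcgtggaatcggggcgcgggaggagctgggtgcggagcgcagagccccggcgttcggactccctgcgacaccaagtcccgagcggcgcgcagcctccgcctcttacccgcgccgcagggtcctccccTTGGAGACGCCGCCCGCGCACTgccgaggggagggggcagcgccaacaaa
RefSeq held a window for 31 of the 39 genes. CCAAT, searched on both strands, was in 12 of their 34 windows and in 37.4% of all 32851 windows. TATAAA was in 4 of the 34 and in 13.6% of all windows, and CANNTG was in 17 of the 34 and in 72.3% of all windows. Col4a3 and Col4a4 likewise start head to head, 72 bases apart, and Col4a5 and Col4a6 start 1309 bases apart.

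Nuclei were sorted into classes by the RNA they held. RNA was counted in UMIs (unique molecular identifiers, each a captured RNA molecule). The limit was 1.5% of the UMIs of a nucleus (4% in the adult) from the muscle genes Ttn, Neb, Trdn and Ryr1. A nucleus below it entered the class of each gate gene it had a UMI of. The gate genes were Pdgfra for mesenchymal cells, Tnmd for tenocytes, Pecam1 for endothelium and Pax7 for muscle stem cells. Nuclei above that limit were myonuclei, and nuclei with a UMI of the leukocyte gene Ptprc but of no gate gene served as a class that should make little collagen. The KO library gave 1033 Pdgfra-positive, 109 Tnmd-positive, 176 Pecam1-positive and 381 Pax7-positive nuclei and 981 myonuclei, against 1441, 494, 197 and 182 nuclei and 1563 myonuclei in WT E18.5. The adult library had 138 Pdgfra-positive nuclei and 4388 myonuclei, but only 2 Tnmd-positive, 15 Pecam1-positive and 25 Pax7-positive nuclei, too few to describe. Levels are UMIs per 1000000 UMIs of the class (CPM), so they are shares of the RNA captured, and less RNA per nucleus cannot be told apart from fewer nuclei that express a gene. As these are droplet data, free RNA can reach every nucleus, and a nucleus can hold UMIs of more than 1 gate gene: 65 of the 109 Tnmd-positive KO nuclei, and 205 of the 494 in WT E18.5, were also Pdgfra-positive.

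The libraries kept 3228 nuclei in KO and 3747 to 5108 in WT, with 21063881 to 29574992 UMIs each. Nuclei over 25000 UMIs were left out, and these held 41.4% of UMIs in KO but 0.922 to 15.9% in WT. Of 22009 barcodes, 291 occurred in more than 1 library. Cacna1s had 8 UMIs in KO myonuclei (0.731 CPM) and 2371 UMIs in WT E18.5 myonuclei (189 CPM), as the labels imply. Each class of at least 50 nuclei held the markers of its own cell type. The summed mesenchymal markers were 1309.8 CPM in KO and 1608 CPM in WT E18.5 Pdgfra-positive nuclei, and the tenocyte markers 1409.9 and 1559 CPM in Tnmd-positive nuclei. These marker lists include the gate gene itself, so the gate raises such sums and they do not test the identity of the class. Markers of other cell types moved with the KO, however. In Pdgfra-positive nuclei the tenocyte markers summed to 176 CPM in KO and 304 CPM in WT E18.5, the chondrocyte markers to 24 and 72 CPM, and the adipocyte markers to 217 and 34.9 CPM.

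The collagen genes together took their largest shares of RNA in Tnmd-positive nuclei, then in Pdgfra-positive nuclei, and in every class the KO share was below that of WT E18.5. Collagen UMIs made up 1.08% of UMIs in KO Pdgfra-positive nuclei, against 1.58% in WT E18.5, a ratio of 0.684. In Tnmd-positive nuclei they made up 1.26% in KO and 2.25% in WT E18.5 (ratio 0.562). The shares were 0.484% and 1.05% in Pecam1-positive nuclei (ratio 0.460), and 0.541% and 0.787% in Pax7-positive nuclei (ratio 0.687). KO myonuclei had 0.253% and WT E18.5 myonuclei 0.323% (ratio 0.785). Ptprc-positive nuclei, used as a reference in place of a measure of free RNA, had 0.0895% in KO and 0.116% in WT E18.5. The level of this reference was thus itself lower in the KO library. Across WT stages the share in Pdgfra-positive nuclei was 0.763% in E14.5, 1.58% in E18.5, 1.73% in P5 and 0.887% in adult muscle, so it was highest at P5 and the adult lay between the 2 embryonic stages. In myonuclei it was 0.235%, 0.323%, 0.305% and 0.0208%, lowest in the adult by far.

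**Figure D1:**
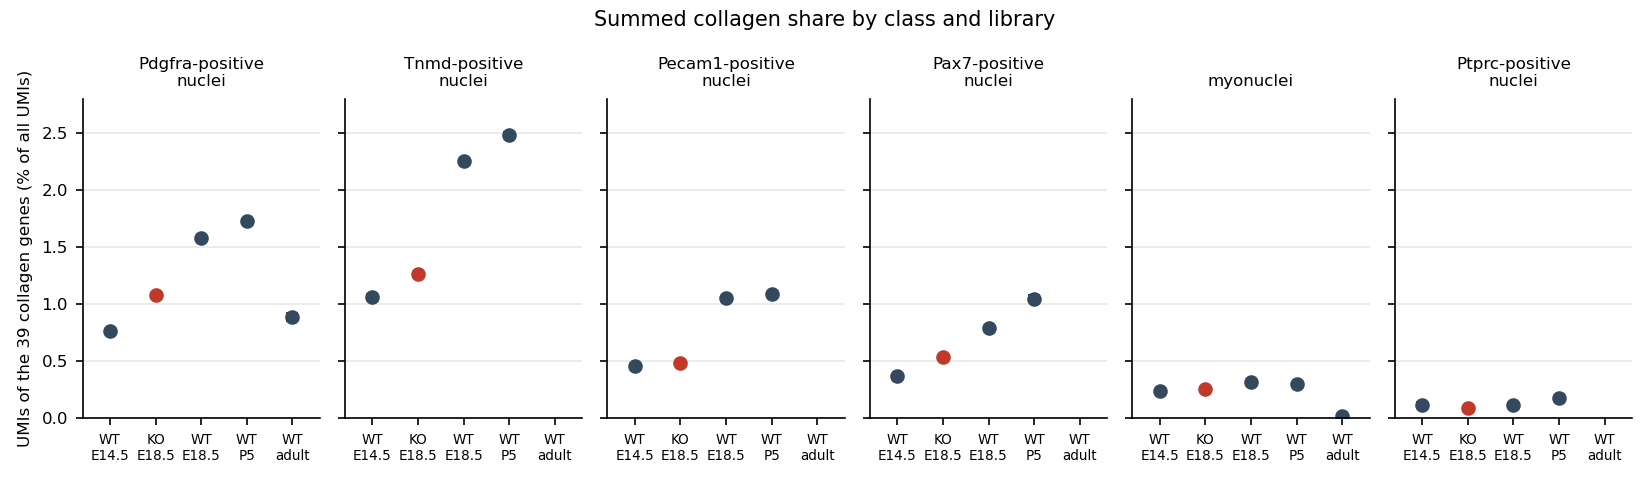
Share of all UMIs from the 39 collagen genes (y axis, percent) in 6 classes of nuclei, 1 point per library, with 95% binomial intervals smaller than the points; classes of under 30 nuclei are left out. The KO point lies below the WT E18.5 point in every panel, at 1.26% against 2.25% in Tnmd-positive nuclei and 0.253% against 0.323% in myonuclei.

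Each class had its own collagens. To compare classes, nuclei with a UMI of exactly 1 gate gene were used, and a gene counted as higher or lower past 2-fold, where its UMIs in the classes compared added up to at least 50. In WT E18.5, 9 of 32 collagen genes were at least 2-fold higher and 5 at least 2-fold lower in Tnmd-positive than in Pdgfra-positive nuclei (6.01% and 8.61% of all genes tested). The higher ones included genes of tendon and cartilage fibrils. Col11a1, which helps nucleate thin fibrils, had 3212 CPM in Tnmd-positive and 323 CPM in Pdgfra-positive nuclei, a ratio of 9.94 (9.47 to 10.4). Its partner chain Col11a2 had a ratio of 14.1 (11.4 to 17.4), and Col1a1, the main chain of type I fibrils, one of 3.59 (3.48 to 3.7). Col5a3, a minor fibrillar chain, lay on the other side, with 17 CPM in Tnmd-positive and 237 CPM in Pdgfra-positive nuclei, and Col6a6, a beaded filament chain, did so too with a ratio of 0.0671 (0.0524 to 0.0846).

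Pecam1-positive nuclei carried the basement membrane collagens of vessels. Against Pdgfra-positive nuclei of WT E18.5, 6 of 31 genes were higher and 23 lower (10.5% and 15.6% of all genes). Col4a1, the main chain of the type IV network, had 1256 CPM in Pecam1-positive and 262 CPM in Pdgfra-positive nuclei. Its partner Col4a2 was 4.92 (4.47 to 5.41) times as high, Col15a1 8.62 (7.25 to 10.2) times and Col18a1, the precursor of endostatin, 12.8 (10.7 to 15.3) times. Col1a1 was among the 23 lower, with 368 CPM in Pecam1-positive and 1373 CPM in Pdgfra-positive nuclei.

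Pax7-positive nuclei and myonuclei shared Col19a1, a rare FACIT chain of basement membrane zones, and Col26a1, a short collagen first described in testis and ovary. Against Pdgfra-positive nuclei of WT E18.5, 5 of 31 genes were higher and 23 lower in Pax7-positive nuclei (11.1% and 18.1% of all genes), and 4 of 34 higher and 26 lower in myonuclei (15.2% and 24.3%). Col19a1 had 1138 CPM in Pax7-positive and 31.6 CPM in Pdgfra-positive nuclei (ratio 36, 31.1 to 41.8), and 292 CPM in myonuclei (ratio 9.23, 8.09 to 10.6). Col26a1 was 16.2 (13 to 20.2) times as high in Pax7-positive nuclei and 7.35 (6.19 to 8.79) times in myonuclei. It was not particular to them: Tnmd-positive and Pecam1-positive nuclei, with 73 and 31 UMIs of it, were also past 2-fold above Pdgfra-positive nuclei. Pax7-positive nuclei were also higher in Col15a1 and Col18a1, with ratios of 10.6 (8.97 to 12.5) and 5.58 (4.44 to 6.99). Col7a1, the anchoring fibril chain of skin, was 7 (2.84 to 22.4) times as high in myonuclei. Against the 54 Ptprc-positive nuclei of the same library, Col26a1 was 53.8 (14.7 to 447) times as high in Pax7-positive nuclei and 24.4 (6.75 to 202) times in myonuclei. Those wide intervals reflect few UMIs in the Ptprc-positive nuclei, and free RNA itself was not measured. Col1a1 was lower in Pax7-positive than in Ptprc-positive nuclei, with a ratio of 0.459 (0.309 to 0.68), and in myonuclei its ratio was 2.93 (2.26 to 3.87).

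Per kilobase of gene, introns included, Col1a1 led in Pdgfra-positive nuclei, Tnmd-positive nuclei and myonuclei of WT E18.5. In KO it kept the lead in the Tnmd-positive nuclei and the myonuclei. Pdgfra-positive nuclei had 46.6 CPM per kb for Col3a1, 39.9 for Col1a1 and 39.6 for Col1a2 in KO, against 67.2, 119 and 71.5 in WT E18.5, so Col1a1 headed the order in WT and Col3a1 in KO. In Tnmd-positive nuclei Col1a1 had 75.7 CPM per kb in KO and 282 in WT E18.5, and it headed the order in both. In myonuclei Col1a1 also headed the order in both, with 5.69 CPM per kb in KO and 28.6 in WT E18.5. Col19a1 had 3.18 in KO myonuclei, next after Col3a1 at 4.77.

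With motion absent, Col1a1 was past 2-fold lower and no fibrillar gene past 2-fold higher in each of the 5 whole classes, while Col19a1 was past 2-fold higher in 4 of the 5. Neither statement on the fibrillar genes held in nuclei positive for Pax7 alone, where Col1a1 was at 1.3 (0.958 to 1.8) and Col11a1 at 2.43 (1.44 to 4.38). In Pdgfra-positive nuclei 5 of 35 collagen genes tested were at least 2-fold higher and 6 at least 2-fold lower in KO than in WT E18.5, against 5.47% and 4.16% of all 13263 genes tested. The median log2 ratio of the collagen genes was -0.41, against -0.06 for all genes. The 4 not tested were Col4a3, Col6a4, Col7a1 and Col10a1, with under 50 UMIs in the libraries together. In Tnmd-positive nuclei 1 of 26 was higher and 6 lower (4.11% and 6.98% of all genes), with a median of -0.54 against -0.11. In Pecam1-positive nuclei 3 of 25 were higher and 11 lower (4.39% and 3.95%), with a median of -0.96 against -0.01. In Pax7-positive nuclei 2 of 24 were higher and 5 lower (4.91% and 2.48%), with a median of -0.45 against -0.05. In myonuclei 1 of 30 was higher and 12 lower (4.78% and 4.69%), with a median of -0.75 against -0.04. The fibrillar genes gave 4 of the 6 lower genes in Pdgfra-positive nuclei, 3 of 6 in Tnmd-positive nuclei and 6 of 11 in Pecam1-positive nuclei. They gave 3 of 5 in Pax7-positive nuclei and 7 of 12 in myonuclei. Among the collagen genes tested they were 10 of 35, 10 of 26, 9 of 25, 8 of 24 and 10 of 30, in the same order of classes. Ptprc-positive nuclei, with 87 nuclei in KO and 54 in WT E18.5, had 0 of 7 higher and 2 lower (7.53% and 3.07%) and a median of -0.58 against -0.01.

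**Figure D2:**
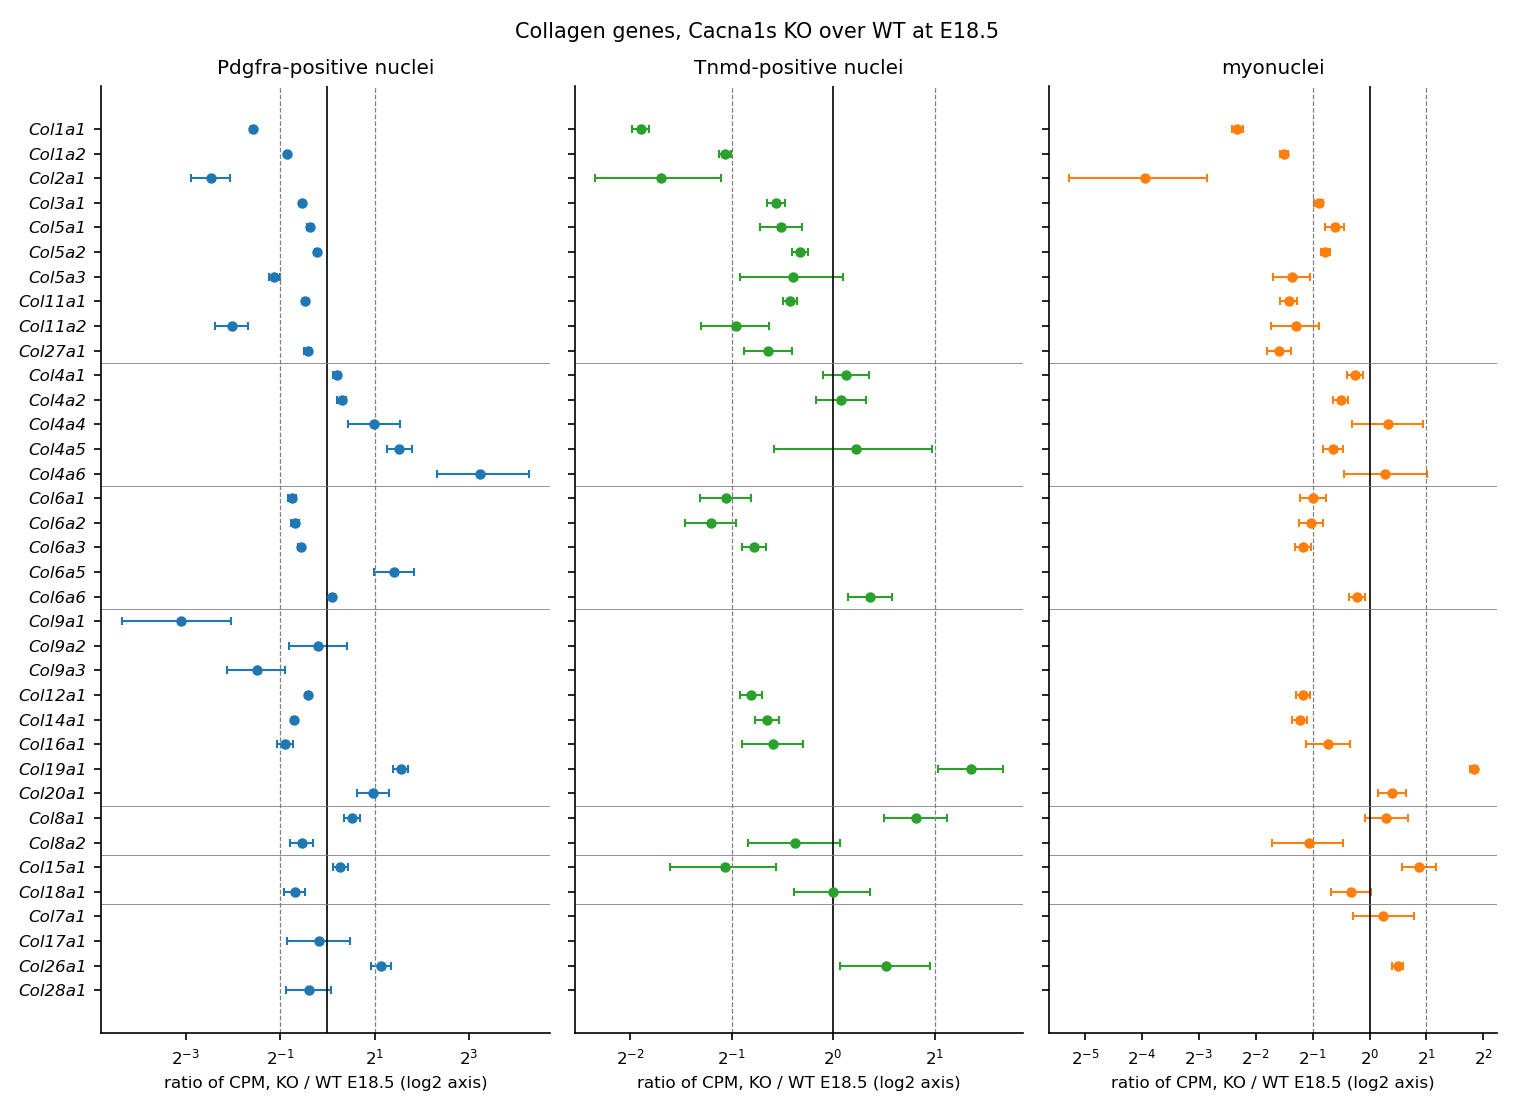
KO over WT E18.5 ratio of each collagen gene (x axis, log2 scale, with 95% intervals for counting error) in Pdgfra-positive nuclei, Tnmd-positive nuclei and myonuclei, grouped by collagen family, with dashed lines at ratios of 0.5 and 2. Col1a1 lies left of 0.5 in all 3 panels, and Col19a1 lies right of 2 in all 3.

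Col1a1, the main type I chain, had 671 CPM in KO Pdgfra-positive nuclei, against 2002 CPM in WT E18.5, a ratio of 0.335 (0.326 to 0.345). In Tnmd-positive nuclei it had 1273 CPM in KO and 4736 CPM in WT E18.5 (ratio 0.269, 0.254 to 0.285), and in myonuclei 95.7 and 480.5 CPM (ratio 0.199, 0.186 to 0.213). All 3 KO values lay above those of WT E14.5, which were 328, 645 and 25.2 CPM, so the KO stood between the earlier embryo and its stage-matched WT. The ratio was 0.183 (0.163 to 0.205) in Pecam1-positive nuclei, 0.332 (0.298 to 0.369) in Pax7-positive nuclei and 0.286 (0.175 to 0.457) in Ptprc-positive nuclei. The Ptprc-positive reference of the KO library was thus lower in Col1a1 by about as much. When each nucleus was thinned to 1000 UMIs, 41.3% of KO and 63.9% of WT E18.5 Pdgfra-positive nuclei held a Col1a1 UMI, against 1.18% and 7.55% of Ptprc-positive nuclei. Without thinning, at median depths of 7723 UMIs in KO and 5997 in WT E18.5, the shares of Pdgfra-positive nuclei were 92.4% and 97.2%.

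The partner chain Col1a2, which joins Col1a1 in the type I helix, differed less. It had 1455 CPM in KO and 2628 CPM in WT E18.5 Pdgfra-positive nuclei (ratio 0.554, 0.542 to 0.565), and its ratio was 0.478 (0.459 to 0.499) in Tnmd-positive nuclei and 0.351 (0.334 to 0.37) in myonuclei. Col1a1 therefore made up 31.6% of the type I UMIs of KO Pdgfra-positive nuclei and 43.2% in WT E18.5. Over the WT stages that share was 26.8% in E14.5, 43.2% in E18.5, 31.3% in P5 and 24.9% in adult muscle, highest at E18.5. Col3a1, the fibrillar chain of reticular fibres, stayed within 2-fold in these classes, at 0.694 (0.68 to 0.707) in Pdgfra-positive nuclei, 0.677 (0.637 to 0.721) in Tnmd-positive nuclei and 0.537 (0.509 to 0.567) in myonuclei. Among fibrillar genes Col5a1 and Col5a2, chains of type V, which helps set fibril diameter, were nearest to WT in Pdgfra-positive nuclei, at 0.774 (0.738 to 0.812) and 0.856 (0.838 to 0.874).

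Col11a1 changed direction once tenocyte-marked nuclei were taken out, while Col5a3 and Col11a2, the other type XI gene listed here, did not. Col5a3 had 93.3 CPM in KO and 203 CPM in WT E18.5 Pdgfra-positive nuclei (ratio 0.459, 0.424 to 0.497). Col11a1 had 455 and 629 CPM (ratio 0.723, 0.696 to 0.752), and Col11a2 had 8.86 and 36 CPM (ratio 0.246, 0.191 to 0.313). In the 735 KO and 921 WT E18.5 Pdgfra-positive nuclei without a UMI of any of the 6 tenocyte markers, a split made after the data were seen, Col5a3 was at 0.416 (0.378 to 0.457) and Col11a2 at 0.376 (0.229 to 0.602). Col1a1 was then at 0.487 (0.468 to 0.507), while Col11a1 turned to the higher side at 1.43 (1.33 to 1.54). With nuclei positive for Pdgfra alone, 865 in KO and 1155 in WT E18.5, Col1a1 was at 0.497 (0.48 to 0.514) and Col11a1 again above 1 at 1.22 (1.16 to 1.29). The lower Col11a1 of the whole class thus held only with the tenocyte-marked nuclei included, while Col1a1 stayed past 2-fold lower with a smaller difference. In Tnmd-positive nuclei Col11a1 had 1835 CPM in KO and 2464 CPM in WT E18.5 (ratio 0.745, 0.708 to 0.783), and Col1a1 in the 41 KO and 273 WT nuclei positive for Tnmd alone was at 0.383 (0.35 to 0.418).

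Some cartilage collagens had among the lowest ratios, at low levels, while Col9a2 did not. Col2a1, the main fibrillar chain of cartilage, had 6.19 CPM in KO and 34.4 CPM in WT E18.5 Pdgfra-positive nuclei (ratio 0.18, 0.134 to 0.238), and ratios of 0.309 (0.197 to 0.466) in Tnmd-positive nuclei and 0.0651 (0.0256 to 0.138) in myonuclei. Col9a1 and Col9a3, FACIT chains that coat type II fibrils, were at 0.117 (0.0487 to 0.242) and 0.354 (0.228 to 0.535) in Pdgfra-positive nuclei, on 8 and 31 UMIs in KO against 75 and 96 UMIs in WT E18.5. Their partner chain Col9a2 was at 0.873 (0.571 to 1.33), whose interval holds 1. The chondrocyte markers summed to 24 CPM in KO and 72 CPM in WT E18.5 in this class, to 71.9 and 168 CPM in Tnmd-positive nuclei and to 6.12 and 16.6 CPM in myonuclei, and their part in these differences was not tested.

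The FACIT and beaded filament genes of connective tissue were lower by less. In Pdgfra-positive nuclei Col12a1, which links fibrils to surrounding matrix, had 879 CPM in KO and 1166 CPM in WT E18.5 (ratio 0.754, 0.733 to 0.775), and Col14a1, its relative, had 597 and 974 CPM (ratio 0.613, 0.593 to 0.634). Col16a1, another FACIT gene, was at 0.539 (0.479 to 0.606). Col6a1, Col6a2 and Col6a3, the chains of the type VI heterotrimer whose loss causes congenital muscular dystrophy in people, were at 0.595 (0.56 to 0.632), 0.619 (0.585 to 0.655) and 0.674 (0.652 to 0.697). In Tnmd-positive nuclei Col6a1 and Col6a2 passed 2-fold, at 0.481 (0.403 to 0.571) and 0.434 (0.363 to 0.516). In Pdgfra-positive nuclei all 6 of these genes stayed within 2-fold, and none lay above WT E18.5. The fourth type VI chain with much RNA, Col6a6, differed from them at 1.07 (1.04 to 1.11), although it was at 0.955 (0.915 to 0.995) without tenocyte-marked nuclei, and Col6a5, a rare chain, was higher at 2.65 (1.98 to 3.58), with 17.3 CPM in KO and 6.53 CPM in WT E18.5.

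**Figure D3:**
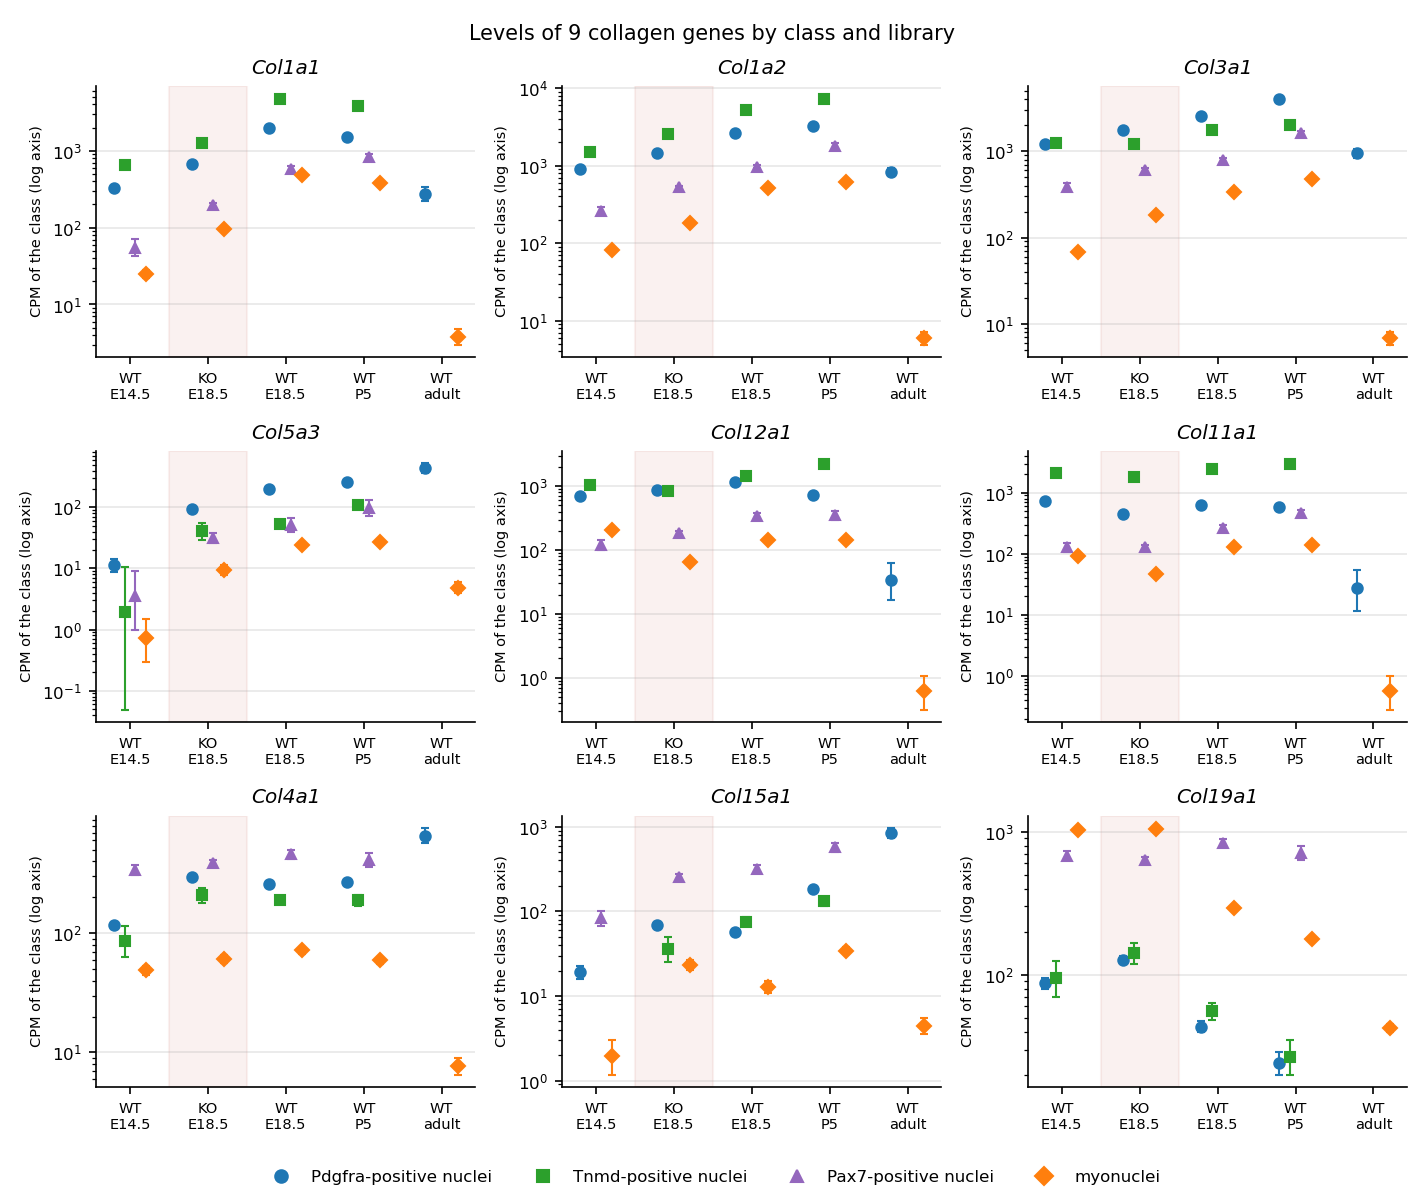
Level of 9 collagen genes (y axis, CPM, log scale) in Pdgfra-positive, Tnmd-positive and Pax7-positive nuclei and myonuclei of each library, with the KO column shaded; classes of under 50 nuclei or with 0 UMIs are left out, and bars are 95% Poisson intervals. Col1a1 in KO Pdgfra-positive nuclei sits at 671 CPM against 2002 CPM in WT E18.5, while Col19a1 in KO myonuclei sits at 1037 CPM, close to 1029 CPM in WT E14.5.

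The basement membrane genes stood apart from the fibrillar ones in the whole class of KO Pdgfra-positive nuclei. Col4a1 had 296 CPM in KO and 258 CPM in WT E18.5 (ratio 1.15, 1.09 to 1.21), and Col4a2 226 and 183 CPM (ratio 1.23, 1.16 to 1.31). The head-to-head pair on the X chromosome was further up: Col4a5 had 45.5 and 15.8 CPM (ratio 2.88, 2.4 to 3.47), and Col4a6, on 94 UMIs in KO and 11 in WT E18.5, had 10.0 and 1.07 CPM (ratio 9.36, 5 to 19.4). Both KO values lay a little below those of WT E14.5, which were 54.4 CPM for Col4a5 and 11 CPM for Col4a6. The basement membrane genes accordingly made up 5.44% of collagen UMIs in KO and 2.93% in WT E18.5 Pdgfra-positive nuclei, and the fibrillar genes 61.4% and 67.7%. In nuclei without tenocyte markers Col4a6 was at 14.1 (5.25 to 53.5), on 61 UMIs in KO and 4 in WT E18.5. Col4a1 was there at 1.09 (1.02 to 1.17) and Col4a2 at 1.23 (1.14 to 1.33). The fibrillar gene Col11a1 lay above both at 1.43 (1.33 to 1.54), while the other fibrillar genes were below 1. In Pax7-positive nuclei Col4a5 was also higher, at 3.28 (1.92 to 6.01), whereas in myonuclei it was at 0.642 (0.565 to 0.728), below 1. Muscle stem cell markers summed to 188 CPM in KO and 78.1 CPM in WT E18.5 Pdgfra-positive nuclei, Schwann cell markers to 71.3 and 21.4 CPM and adipocyte markers to 217 and 34.9 CPM, and their part in the higher Col4a5 and Col4a6 was not tested.

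Col19a1 was the collagen gene with the most RNA on the higher side. KO myonuclei had 1037 CPM, against 292 CPM in WT E18.5, a ratio of 3.55 (3.42 to 3.69). It was also higher in Pdgfra-positive nuclei, with 127 CPM in KO and 43.4 CPM in WT E18.5 (ratio 2.93, 2.62 to 3.27), in Tnmd-positive nuclei at 2.56 (2.05 to 3.19) and in Pecam1-positive nuclei at 4.61 (3.56 to 6.03). In Pax7-positive nuclei, where its level was 634 CPM in KO and 836 CPM in WT E18.5, it was at 0.758 (0.704 to 0.818), on the other side of 1, and in Ptprc-positive nuclei it was at 0.669 (0.386 to 1.16), whose interval holds 1. In nuclei positive for Pdgfra alone the ratio was 2.59 (2.22 to 3.02), and in the 41 KO nuclei positive for Tnmd alone it was 1.45 (0.797 to 2.5), whose interval holds 1. For Pecam1 alone the ratio was 2.6 (1.84 to 3.76), nearer to 1 than in the whole class. WT myonuclei had 1029 CPM in E14.5, 292 in E18.5, 176 in P5 and 42.5 in adult muscle, so the level was lower at each later stage and KO myonuclei at E18.5 were at the level of WT E14.5. The muscle stem cell markers summed to 288 CPM in KO and 131 CPM in WT E18.5 myonuclei, and their part in the myonuclear Col19a1 was not tested.

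Col26a1, Col15a1 and Col20a1 differed by class. Col26a1 had 62 CPM in KO and 28.2 CPM in WT E18.5 Pdgfra-positive nuclei (ratio 2.2, 1.91 to 2.55), 2.09 (1.58 to 2.79) times the WT level in Pecam1-positive nuclei and 1.41 (1.32 to 1.5) times in myonuclei, so only the first 2 passed 2-fold. In Pax7-positive nuclei it was at 0.861 (0.752 to 0.989), on the other side of 1, and in nuclei positive for Pecam1 alone it was at 1.49 (0.956 to 2.37), whose interval holds 1. Its WT myonuclear levels were 286 CPM in E14.5, 141 in E18.5, 91.4 in P5 and 3.71 in adult muscle, also lower at each later stage. Col26a1 overlaps another counted gene on its strand, Gm20485, so its counts are uncertain in the shared stretch. Col15a1 was at 1.82 (1.49 to 2.24) in myonuclei, with 23.3 CPM in KO and 12.8 CPM in WT E18.5, but at 0.478 (0.328 to 0.678) in Tnmd-positive nuclei. Col20a1, a FACIT chain that overlaps the counted gene BX649560.1, was past 2-fold higher in Pecam1-positive nuclei at 2.4 (1.31 to 4.66) and in Pax7-positive nuclei at 4.24 (1.86 to 11.9). It had 39 UMIs in KO and 9 in WT E18.5 nuclei positive for Pecam1 alone. For Pax7 alone it had 44 and 1, and both were too few to be tested.

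The FACIT gene Col19a1 held a larger share of collagen RNA than all fibrillar genes in KO myonuclei, and a smaller one in WT E18.5 myonuclei. Fibrillar genes made up 29.4% of collagen UMIs in KO and 59.3% in WT E18.5, and FACIT genes 47.2% and 18.9%. Col19a1 alone made up 40.9% in KO and 9.05% in WT E18.5, and the other FACIT genes 6.28% and 9.87%. Of the 12 genes past 2-fold lower, 7 were fibrillar: Col2a1, Col1a1, Col27a1 (ratio 0.331, 0.287 to 0.382), Col1a2, Col11a1 (ratio 0.373, 0.337 to 0.412), Col5a3 (ratio 0.388, 0.307 to 0.486) and Col11a2 (ratio 0.406, 0.301 to 0.542). The others were Col14a1 (ratio 0.426, 0.388 to 0.468), Col12a1 (ratio 0.445, 0.407 to 0.486), Col6a3 (ratio 0.446, 0.405 to 0.491), Col8a2, a short chain gene (ratio 0.476, 0.305 to 0.727), and Col6a2 (ratio 0.493, 0.425 to 0.57). Markers of the cells that make these collagens moved the same way in the myonuclei: mesenchymal markers summed to 179 CPM in KO and 318 CPM in WT E18.5, and tenocyte markers to 24.9 and 88.4 CPM. Against Ptprc-positive nuclei of their own library, KO myonuclei had 2.04 (1.4 to 3.08) times as much Col1a1 and 20.0 (14 to 29.4) times as much Col19a1. The part of free RNA and of these cells in the fibrillar UMIs of myonuclei was not tested.

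Fibrillar genes were lower in Pecam1-positive and Pax7-positive nuclei as well. With nuclei of exactly 1 gate gene, 0 of 21 collagen genes tested moved to the other side of 1 in Pecam1-positive nuclei. In Pax7-positive nuclei 7 of 20 did. In Pecam1-positive nuclei, 176 in KO and 197 in WT E18.5, the 11 lower genes included Col1a1, with 199 CPM in KO and 1088 CPM in WT E18.5, Col1a2 (ratio 0.29, 0.268 to 0.315), Col3a1 (ratio 0.349, 0.323 to 0.377), Col11a1 (ratio 0.309, 0.265 to 0.359) and all of Col6a1, Col6a2 and Col6a3 (0.323 to 0.475). The other 4 were Col5a3 (ratio 0.294, 0.216 to 0.394), Col14a1 (ratio 0.299, 0.262 to 0.34), Col12a1 (ratio 0.464, 0.412 to 0.521) and Col11a2 (ratio 0.13, 0.0496 to 0.291). The class's own collagen Col4a1 had 521 CPM in KO and 798 CPM in WT E18.5 (ratio 0.652, 0.599 to 0.71), and Col4a2, Col15a1 and Col18a1 were at 0.737 (0.669 to 0.812), 0.608 (0.516 to 0.715) and 0.656 (0.564 to 0.762). In the 107 KO and 118 WT E18.5 nuclei positive for Pecam1 alone these 4 stayed below 1, with Col4a1 at 0.501 (0.451 to 0.556) and Col15a1 at 0.49 (0.4 to 0.6). There Col1a1 was at 0.132 (0.0944 to 0.18), Col1a2 at 0.194 (0.151 to 0.246) and Col3a1 at 0.169 (0.134 to 0.211). Col11a1 was at 0.627 (0.387 to 1.01), whose interval holds 1. The mesenchymal markers in Pecam1-positive nuclei summed to 412 CPM in KO and 861 CPM in WT E18.5, and the tenocyte markers to 45 and 219 CPM, and their part in the lower fibrillar genes was not tested.

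In Pax7-positive nuclei Col1a1 had 194 CPM in KO and 585 CPM in WT E18.5 (ratio 0.332, 0.298 to 0.369), and Col27a1, Col16a1, Col11a1 and Col14a1 were past 2-fold lower as well, at 0.452 (0.368 to 0.556), 0.461 (0.311 to 0.687), 0.483 (0.418 to 0.559) and 0.496 (0.438 to 0.563). In the 290 KO and 138 WT E18.5 nuclei positive for Pax7 alone, 7 of 20 genes tested turned from below 1 to above 1. Among them Col1a2 was at 1.29 (1.08 to 1.54), Col3a1 at 1.26 (1.07 to 1.49), Col11a1 at 2.43 (1.44 to 4.38), Col14a1 at 1.69 (1.08 to 2.73) and Col6a3 at 2.87 (1.85 to 4.69). For the other 2, Col1a1 at 1.3 (0.958 to 1.8) and Col5a2 at 1.05 (0.886 to 1.24), the interval held 1. In the whole class Col1a2, Col3a1, Col5a2 and Col6a3 had been at 0.54 (0.502 to 0.582), 0.767 (0.71 to 0.829), 0.743 (0.684 to 0.808) and 0.722 (0.627 to 0.833). Col27a1, a fibrillar gene of cartilage, and Col19a1 stayed lower there, at 0.368 (0.237 to 0.574) and 0.63 (0.578 to 0.687). Macrophage markers summed to 274 CPM in KO and 19.9 CPM in WT E18.5 Pax7-positive nuclei and tenocyte markers to 58.9 and 133 CPM, and their part in these ratios was not tested.

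Open chromatin at the collagen promoters was compared in the same nuclei, as fragments per 1000000 fragments of the class (FPM). A peak counted if it reached within 500 bases of the stretch from a gene's first to its last listed start. For 4 genes, Col6a6, Col9a1, Col15a1 and Col18a1, that stretch was over 1 kb long and could hold peaks away from a start. None of the 4 entered the promoter ratios below. In Pdgfra-positive nuclei 21 collagen genes had at least 50 fragments and peaks of like size in both libraries, and 0 were past 2-fold in either direction, with 1.1% of all 13232 genes higher and 0.65% lower. Their median ratio was 1.11, beside 1.10 over all genes. The Col1a1 promoter had 53.5 FPM in KO and 47.4 in WT E18.5 (ratio 1.13, 0.897 to 1.41), although its RNA ratio was 0.335 (0.326 to 0.345). Col1a2, whose promoter is printed above, was at 0.969 (0.767 to 1.21), Col3a1 at 1.25 (0.918 to 1.7) and Col5a3 at 1.04 (0.789 to 1.35). The shared window of Col4a1 and Col4a2 was higher, with 30.9 FPM in KO and 16.7 in WT E18.5 (ratio 1.85, 1.33 to 2.55), and the highest ratio of the 21 was that of Col26a1, with 13.2 and 6.81 FPM (ratio 1.94, 1.15 to 3.2). RNA and promoter counts differ in depth, so a promoter change smaller than these intervals was not detectable.

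In myonuclei 1 of 19 collagen promoters was past 2-fold higher and 2 lower in KO (0.365% and 1.41% of all genes), with a median ratio of 0.744 beside 1.02 over all genes. The higher one was Col26a1, with 16.7 FPM in KO and 7.3 in WT E18.5 (ratio 2.28, 1.51 to 3.43). The lower ones were Col1a2, with 4.03 and 13.2 (ratio 0.306, 0.15 to 0.566), and Col11a1 (ratio 0.483, 0.252 to 0.861). Col19a1, with 34 and 18.7 FPM, was at 1.82 (1.39 to 2.38), on the same side of 1 as its RNA. In Tnmd-positive nuclei 0 of 11 were past 2-fold in either direction (3.33% and 5.64% of all genes). Over all libraries, 22 of the 39 genes had a peak by this rule in each of the 5 and 7 had none in any. The 22 included Col15a1 and Col18a1, with their long stretches between listed starts. The Col15a1 peaks of WT E14.5 lay away from both its first and its last listed start.

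**Figure D4:**
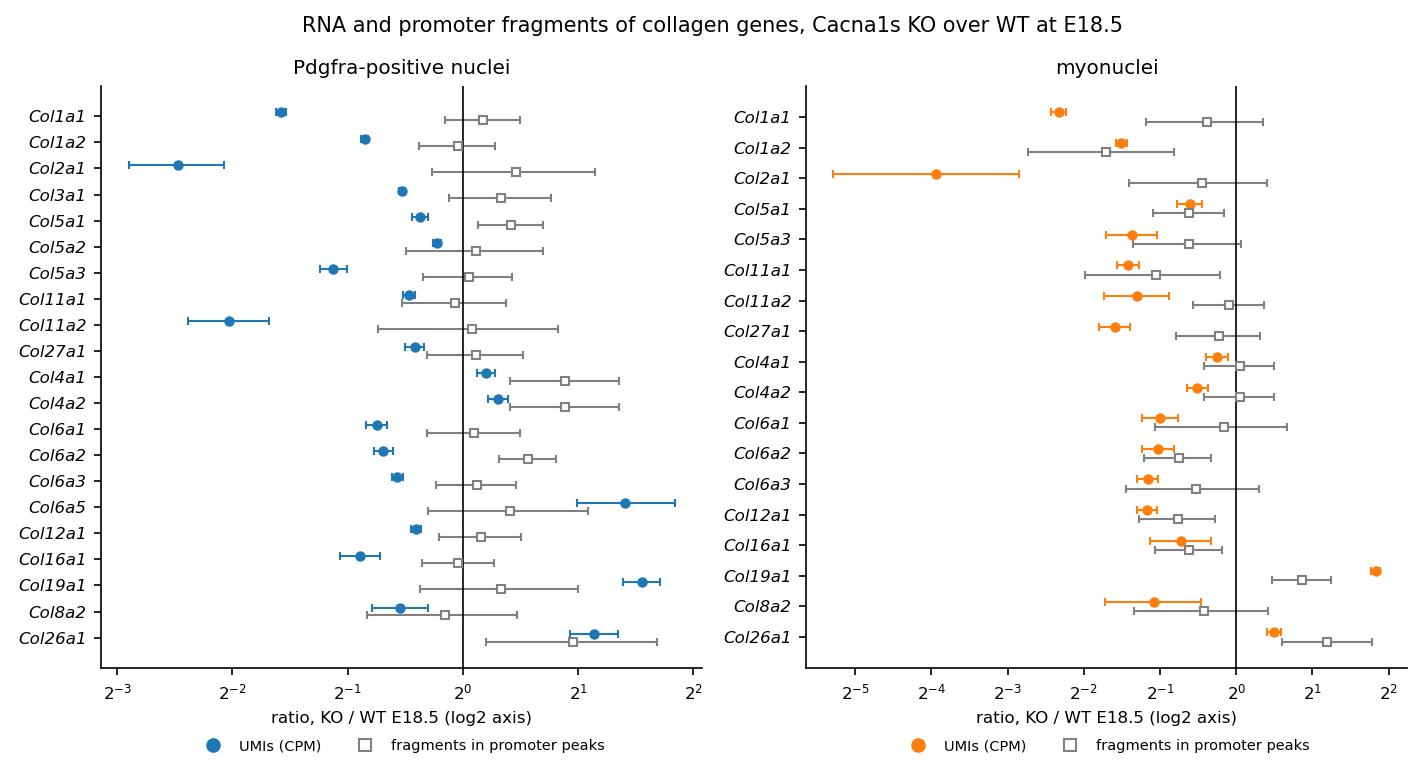
KO over WT E18.5 ratio of UMIs (filled circles) and of promoter fragments (open squares) for each collagen gene tested in both (x axis, log2 scale, with 95% intervals), in Pdgfra-positive nuclei and myonuclei. In Pdgfra-positive nuclei Col1a1 has a UMI ratio of 0.335 and a fragment ratio of 1.13; in myonuclei both ratios of Col26a1 lie above 1.

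Between E14.5 and E18.5 in WT, more collagen genes were past 2-fold higher than lower at the later stage. This comparison and the next share the WT E18.5 library with the KO comparison, so their values are not independent of it, and the P5 library is likewise shared with the adult comparison. In Pdgfra-positive nuclei 14 of 35 were at least 2-fold higher and 7 lower at E18.5 (7.8% and 8.1% of all genes), with a median log2 ratio of 0.93 against 0.03 over all genes. The largest ratio was that of Col5a3, which had 203 CPM at E18.5 and 11.2 CPM at E14.5 (ratio 18.1, 14.3 to 23.4). Col1a1 (ratio 6.1, 5.82 to 6.38), Col14a1 (ratio 3.98, 3.77 to 4.2) and Col6a1 (ratio 3.73, 3.39 to 4.11) followed. Lowest were Col4a6 (ratio 0.0971, 0.0463 to 0.185), Col26a1 (ratio 0.234, 0.204 to 0.269), Col4a5 (ratio 0.29, 0.239 to 0.351) and Col9a1 (ratio 0.338, 0.252 to 0.452). Without tenocyte-marked nuclei Col1a1 was at 3.65 (3.44 to 3.87), and Col11a1, at 0.864 (0.832 to 0.898) in the whole class, was at 0.336 (0.313 to 0.361).

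In the other classes the genes past 2-fold higher at E18.5 also outnumbered those lower. In Tnmd-positive nuclei 12 of 26 were higher and 1 lower (11.1% and 4.51% of all genes), in Pecam1-positive nuclei 12 of 25 higher and 2 lower (7.41% and 4.35%) and in Pax7-positive nuclei 15 of 22 higher and 1 lower (6.26% and 4.76%). These counts are of whole classes, which hold nuclei with UMIs of several gate genes, and the part of those nuclei is not given here. In myonuclei 18 of 31 were higher and 6 lower (15.6% and 8.93%), with a median of 1.52 against 0.16. Col5a3 (ratio 34.1, 16.4 to 85.6), Col1a1 (ratio 19.1, 16.8 to 21.8), Col6a1 (ratio 9.12, 6.67 to 12.8) and Col14a1 (ratio 7.99, 6.81 to 9.44) led in myonuclei, and Col4a6 (ratio 0.0934, 0.063 to 0.134), Col9a2 (ratio 0.22, 0.109 to 0.414), Col19a1 (ratio 0.284, 0.273 to 0.295) and Col4a5 (ratio 0.401, 0.366 to 0.44) were lowest. The mesenchymal markers of myonuclei summed to 318 CPM at E18.5 and 79.1 CPM at E14.5, and their part in the higher fibrillar levels was not tested.

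Between E18.5 and P5 the median ratio of the collagen genes was near that of all genes in Pdgfra-positive nuclei. In Pdgfra-positive nuclei 4 of 35 were higher and 4 lower at P5 (3.35% and 7.3% of all genes), with a median of -0.11 against -0.14 over all genes. All 4 higher ones were basement membrane genes or a multiplexin: Col4a6 (8.66, on 47 UMIs at P5 and 11 at E18.5), Col4a5 (ratio 3.84, 3.16 to 4.68), Col15a1 (ratio 3.25, 2.92 to 3.61), with 184 CPM at P5 and 56.8 CPM at E18.5, and Col4a4 (ratio 2.11, 1.38 to 3.24). The lower ones were Col9a2, Col9a3 and Col2a1, all genes of cartilage, and Col8a2, a short chain of corneal and vessel matrix, at 0.3 (0.123 to 0.635), 0.401 (0.231 to 0.661), 0.477 (0.371 to 0.607) and 0.497 (0.39 to 0.628). In Tnmd-positive nuclei 1 of 27 was higher and 4 lower (3.07% and 7.61%), the higher one being Col5a3 (ratio 2.04, 1.67 to 2.49). In Pecam1-positive nuclei 2 of 25 were higher and 3 lower (2.93% and 4.3%), and in Pax7-positive nuclei 2 of 22 higher and 1 lower (3.22% and 6%). In myonuclei 3 of 31 were higher (6.98% of all genes), Col15a1 (ratio 2.67, 2.22 to 3.23), Col7a1 (ratio 2.23, 1.62 to 3.08) and Col28a1 (ratio 2.2, 1.21 to 4.17), and the lowest ratio was that of Col27a1 (ratio 0.381, 0.334 to 0.433).

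In adult Pdgfra-positive nuclei basement membrane genes took a larger share of collagen RNA than at P5, and fibrillar genes a smaller one. Of 29 genes, 6 were at least 2-fold higher and 13 lower than at P5 (7.73% and 24.8% of all genes), with a median log2 ratio of -0.68 against -0.24. Basement membrane genes made up 15.9% of collagen UMIs in the adult and 3.29% at P5, and fibrillar genes 52.4% and 72.7%. Col4a1 had 659.5 CPM in the adult and 267 CPM at P5 (ratio 2.47, 2.12 to 2.88), and Col15a1 846 and 184 CPM (ratio 4.59, 3.98 to 5.28). Col4a4 (ratio 11.5, 7.1 to 18.3), Col4a6 (ratio 4.4, 2.12 to 8.42), Col8a1, a short chain of vessel walls (ratio 3.68, 2.7 to 4.95), and Col4a5 (ratio 2.58, 1.85 to 3.53) were the other 4 higher. Lowest were Col12a1, with 10 UMIs left in the adult (ratio 0.046, 0.0221 to 0.0847), Col11a1 (ratio 0.0465, 0.0201 to 0.0918), Col16a1 (ratio 0.168, 0.0345 to 0.496) and Col1a1, with 275 CPM in the adult and 1496 CPM at P5 (ratio 0.184, 0.146 to 0.229). Tnmd and Kera had 0 UMIs in the adult Pdgfra-positive nuclei, and the tenocyte markers summed to 64.6 CPM in the adult and 276 CPM at P5, so fewer tenocytes in the gate cannot be told apart from lower levels per cell for the genes that tenocytes share. Without tenocyte-marked nuclei the summed collagen share of the adult was 0.552 times that of P5, beside 0.513 with them, and Col1a1 was at 0.189 (0.144 to 0.245) and Col15a1 at 4.61 (3.96 to 5.35).

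Most collagen genes were lower in adult myonuclei. Of 30 genes 3 were at least 2-fold higher and 26 lower than at P5 (8.13% and 30.4% of all genes), with a median of -3.42 against -0.34. Col1a1 had 3.81 CPM in the adult and 378 CPM at P5 (ratio 0.0101, 0.00792 to 0.0127), Col1a2 was at 0.00961 (0.00793 to 0.0115), Col12a1 at 0.00433 (0.00223 to 0.00759) and Col11a1 at 0.00406 (0.00202 to 0.00728). The mesenchymal markers in myonuclei were at 176 CPM in the adult and 575 CPM at P5, and the tenocyte markers at 4.88 and 87.8 CPM, and their part in this was not tested. In contrast, Col4a3, a basement membrane chain known from kidney and neuromuscular junction, had 20.8 CPM in the adult and 1.78 CPM at P5, on 410 and 22 UMIs (ratio 11.7, 7.65 to 18.9). Col7a1 had 34.7 and 10.5 CPM (ratio 3.3, 2.74 to 4.02), and Col9a1, on 99 and 5 UMIs, was at 12.5 (5.17 to 39.3). Col4a3 and Col9a1 rest on few UMIs at P5. In the adult library Col7a1 was 5.07 (1.4 to 41.9) times as high in myonuclei as in Pdgfra-positive nuclei, on 2 UMIs in the latter. Col4a3 lay on the other side at 0.244 (0.163 to 0.381), with 85.6 CPM in Pdgfra-positive nuclei. Without tenocyte-marked nuclei it had 21 UMIs in 128 adult and 8 UMIs in 624 P5 Pdgfra-positive nuclei, too few to be tested. The higher adult Col4a3 can therefore not be called particular to myonuclei.

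**Figure D5:**
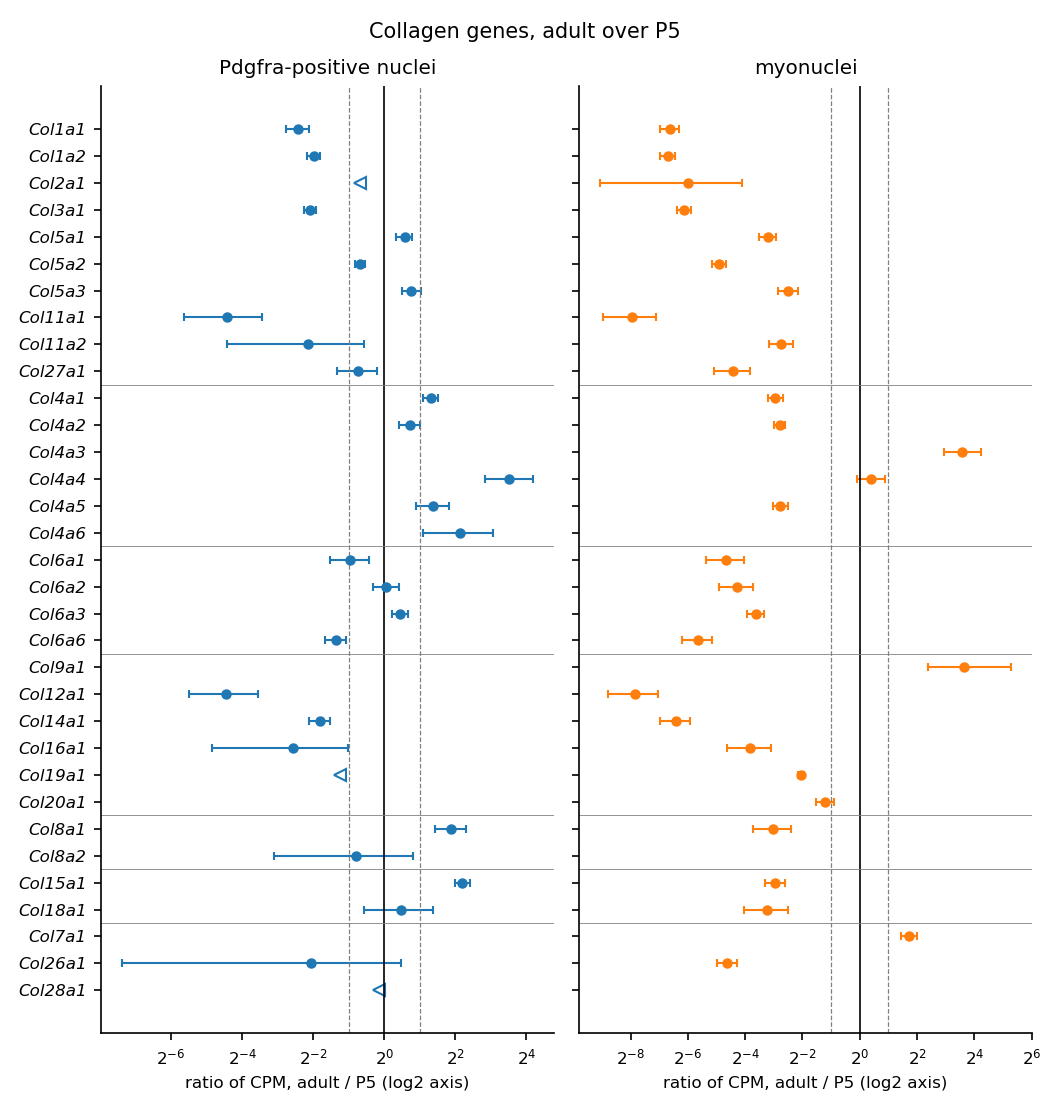
Adult over P5 ratio of each collagen gene (x axis, log2 scale, with 95% intervals for counting error) in Pdgfra-positive nuclei and myonuclei, by family; open triangles are upper bounds that set 0 adult UMIs to a floor of 3 UMIs. Col15a1 lies at 4.59 in Pdgfra-positive nuclei and at 0.130 in myonuclei, and Col4a3, Col7a1 and Col9a1 are the 3 genes past 2 in myonuclei.

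The enzymes and receptors of collagen were read in the same way, from 4 lists of 46 genes in all. Of the 17 genes of chain folding and modification, 0 were at least 2-fold higher and 2 lower in KO than in WT E18.5 Pdgfra-positive nuclei, with a median log2 ratio of -0.47, beside -0.06 over all genes and the 5.47% and 4.16% called given above. They were P4ha3, a subunit of prolyl hydroxylase, with 19.9 CPM in KO and 86 CPM in WT E18.5, and Plod3, a lysyl hydroxylase. P4ha3 was past 2-fold lower in all 5 classes, at 0.231 in Pdgfra-positive, 0.430 in Tnmd-positive, 0.254 in Pecam1-positive and 0.270 in Pax7-positive nuclei and 0.162 in myonuclei. Of 11 procollagen processing and crosslinking genes 0 were higher and 3 lower (median -0.78): Adamts14, a procollagen N-proteinase (0.405), and the lysyl oxidase relatives Loxl1 (0.483) and Loxl2 (0.483). Lox itself was at 1.30 in Pdgfra-positive and 1.71 in Tnmd-positive nuclei. Of 8 receptors 1 was lower, the integrin chain Itga10 (0.265), and of 6 turnover genes 1, the metalloproteinase inhibitor Timp1 (0.263). In myonuclei 1 of 17, 5 of 11, 0 of 8 and 1 of 5 genes of these lists were lower and 0 in each were higher, beside 4.69% of all genes lower and 4.78% higher.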

How the data were processed

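Nuclei of 5 libraries were measured for RNA and open chromatin (10x Multiome). The authors aligned and counted with Cell Ranger ARC 2.0.0 against mm10, introns included, and called peaks per library. The deposited RNA values are raw UMI counts per gene and nucleus, and the deposited ATAC values are raw counts of cut sites per peak and nucleus, halved here to give fragments. Peaks were called in each library, so promoter ratios were kept where the peak lengths differed by at most 1.2 times.

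Nuclei were kept between 400 and 25000 UMIs, up to 70000 ATAC counts and with no more than 10% of UMIs from mitochondrial genes. No doublet caller was run, and nuclei with UMIs of several gate genes entered each class, with the nuclei of exactly 1 gate gene as an alternative. UMIs were summed over each class and library and given as CPM with exact Poisson 95% intervals, and ratios with exact conditional binomial (Clopper-Pearson) 95% intervals. A gene was tested in a comparison where its UMIs in the groups compared added up to at least 50, and called past 2-fold (a ratio of at least 2 or at most 0.5). With 1 library per group no p-value was computed. A sum of 0 was set to a floor of 3 UMIs for bounds. Shares of nuclei with a UMI were compared after thinning to 1000 UMIs per nucleus.

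The genes named were, in each class, the 6 members with the most UMIs over the 5 libraries, in each comparison and class the 4 highest and the 4 lowest ratios among those tested, and every member past 2-fold in KO over WT E18.5. Others are named as partner chains or were chosen after their values were seen. The members and lists were chosen with earlier results of these data known. Analyses used scipy 1.17.1, pandas 2.3.3, numpy 2.4.6 and matplotlib 3.10.9 under Python 3.11.15, and the scripts were tested on simulated data. The alternatives tried were another marker threshold, other gates, other limits on UMIs, ATAC counts and muscle share, median-of-ratios scaling and other minimums of UMIs per gene.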

Additional observations from a re-analysis of the deposited data

Results flagged for a closer look

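Among the collagen genes, 4 moved past 2-fold in opposite directions between P5 and the adult in mesenchymal nuclei and in muscle fibres. The difference between the classes was not tested, since each stage has 1 library. Of all genes tested, 7.73% were past 2-fold higher in adult Pdgfra-positive nuclei and 30.4% past 2-fold lower in adult myonuclei. In myonuclei 26 of 30 collagen genes were lower. The share of all genes that moved in opposite directions was not computed. Col15a1 was at 4.59 times its P5 level in adult Pdgfra-positive nuclei and at 0.130 times in adult myonuclei. Col4a1 was at 2.47 times in Pdgfra-positive nuclei and 0.130 times in myonuclei. Col8a1 was at 3.68 times in Pdgfra-positive nuclei and 0.123 times in myonuclei, and Col4a5 at 2.58 times and 0.146 times. The level of Col15a1 was 846 CPM in the adult and 184 CPM at P5 in Pdgfra-positive nuclei, and 4.42 and 34.1 CPM in myonuclei. Mesenchymal markers in the myonuclei summed to 176 CPM in the adult and 575 CPM at P5, and their part in the myonuclear values was not tested.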

How the results depend on the processing

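With 1 library per group no replicate could be left out. No paired analysis was possible because no group has a second library. No summed collagen ratio changed its direction under the alternatives, but single genes did. With exactly 1 gate gene 7 of 20 genes tested lay on the other side of 1 in Pax7-positive nuclei, 2 of 35 in Pdgfra-positive (Col11a1 and Col6a6), 3 of 24 in Tnmd-positive (Col26a1, Col4a1 and Col18a1, all with intervals that hold 1) and 0 of 21 in Pecam1-positive nuclei, and without tenocyte-marked nuclei 3 of 33 in Pdgfra-positive nuclei (Col11a1, Col6a6 and Col8a2). The KO over WT E18.5 ratio of the summed collagen share in Pdgfra-positive nuclei, 0.684 as reported, was 0.768 in nuclei with exactly 1 gate gene, 0.690 with at least 2 marker UMIs, 0.676 with at least 400 ATAC counts, 0.733 with the gate gene read after thinning to 1000 UMIs, 0.718 with median-of-ratios scaling, 0.559 with no filter on nuclei, which admits the KO nuclei over 25000 UMIs, and 0.756 without tenocyte-marked nuclei. In the same order of settings where it moved, the ratio in Tnmd-positive nuclei (0.562) was 0.608 with exactly 1 gate gene, 0.545 with 2 marker UMIs, 0.499 after thinning and 0.433 with no filter. In Pecam1-positive nuclei (0.460) it was 0.436 with exactly 1 gate gene, 0.436 with 400 ATAC counts, 0.581 after thinning and 0.541 with no filter. In Pax7-positive nuclei (0.687) it was 0.867 with exactly 1 gate gene, 0.602 with 2 marker UMIs, 0.727 with median-of-ratios scaling, 0.708 with a muscle limit of 1% and 0.629 with no filter. In myonuclei (0.785) it was 0.803 with median-of-ratios scaling, 0.809 with the muscle limit of 1% and 0.727 with no filter. For Pdgfra-positive nuclei between WT stages, the E18.5 over E14.5 ratio (2.08) was 1.90 with exactly 1 gate gene, 2.12 with 400 ATAC counts, 1.94 after thinning, 2.05 with the muscle limit of 1% and 1.83 without tenocyte-marked nuclei. The P5 over E18.5 ratio (1.09) was 1.13 with exactly 1 gate gene, 1.08 with 2 marker UMIs, 1.13 after thinning, 1.17 with median-of-ratios scaling, 1.08 with the muscle limit of 1% and 1.15 without tenocyte-marked nuclei. The adult over P5 ratio (0.513) was 0.539 with exactly 1 gate gene, 0.547 with 2 marker UMIs, 0.460 with median-of-ratios scaling and 0.552 without tenocyte-marked nuclei. Among counts of genes past 2-fold in KO over WT E18.5, a minimum of 10 UMIs gave 2 higher in Tnmd-positive nuclei (1 as reported), 4 higher (2) and 11 lower (5) in Pax7-positive nuclei and 2 higher (1) in myonuclei. With no minimum there were 4 higher and 12 lower (6) in Tnmd-positive nuclei, 9 higher (3) in Pecam1-positive nuclei, 7 higher and 12 lower in Pax7-positive nuclei and 3 higher in myonuclei. With exactly 1 gate gene there were 0 higher in Tnmd-positive nuclei, 1 higher in Pecam1-positive nuclei, and 3 higher and 2 lower in Pax7-positive nuclei, against 2 higher and 5 lower as reported. These counts, and the values without tenocyte-marked nuclei, came from alternatives chosen after seeing the data. Depth limits the genes below 50 UMIs, and the intervals leave out spread between animals.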

Other observations

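Some collagen genes below the 50 UMI minimum still had UMIs mostly in 1 library. They were picked after their values were seen and carry no ratio. Col6a5, a rare beaded filament chain, had 39 UMIs in KO myonuclei and 2 in WT E18.5 myonuclei. Col28a1, a chain known from peripheral nerve, had 33 UMIs in KO and 1 in WT E18.5 Pecam1-positive nuclei, and Col4a6 had 23 and 2 in Pax7-positive nuclei. The Pax7-positive class itself held 3513909 UMIs in KO and 1208145 in WT E18.5, so its size alone would give more KO UMIs. In nuclei positive for Pax7 alone Col4a6 had 17 UMIs in KO and 2 in WT E18.5. Schwann cell markers summed to 119 CPM in KO and 31.1 CPM in WT E18.5 Pecam1-positive nuclei, and their part in the Col28a1 UMIs was not tested.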
